A study of Homo sapiens with 6 samples.

Results

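The laminin, integrin and basement membrane genes described here are the 43 of 53712 gene names in the count table that name a laminin alpha, beta or gamma chain, an integrin alpha or beta chain, a nidogen, perlecan (HSPG2), agrin (AGRN) or dystroglycan (DAG1). They are all the names that match a fixed pattern. The study set UNC1999 against UNC2400 in H9, a human embryonic stem cell line kept in RSeT medium, which is sold for naive-like pluripotent cells. Both groups also carried DZNep at 10 nM, which blocks the enzyme that clears S-adenosylhomocysteine, and TSA at 5 nM, which blocks histone deacetylases. The compounds were added 24 h after splitting and RNA was taken 48 h later. The UNC1999 group (3 libraries) received 2.5 µM of this compound, which blocks EZH2 and EZH1, the enzymes that methylate histone H3 in Polycomb repression. The UNC2400 group (3 libraries) received 2.5 µM of its N-methylated, weakly active analog as the control. Poly(A)-selected RNA was sequenced from each, and no group without either compound is analysed here. Separate cultures are not stated for the libraries of a group. The p-values therefore reflect the spread among these libraries, some of which may be technical.

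A basement membrane is a thin protein sheet on which epithelial cells rest. Laminins are trimers of an alpha, a beta and a gamma chain that assemble into one network, nidogens and the proteoglycans perlecan and agrin tie this network to type IV collagen, and integrins and dystroglycan hold the sheet to the cell surface. Pluripotent cells deposit laminin themselves and are commonly grown on laminin or on basement membrane extract, which they bind largely through ITGA6 paired with ITGB1.

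Total counts were 33522942 to 34481593 in the UNC1999 libraries and 29699441 to 42345448 in the UNC2400 libraries. A count of 3 corresponded to 0.0853 to 0.0884 and to 0.0718 to 0.104 CPM, the counts scaled to a common library total. Along the first principal component of all tested genes, which held 67.8% of the variance, UNC1999 replicate 1 stood apart from its group, with a score of 20.1 against 39.3 and 41.4 for UNC1999 replicates 2 and 3, and -35.2 to -31.6 for the UNC2400 libraries. In 22 of the 24 members that changed, it was the UNC1999 library nearest to the UNC2400 mean. The same count was not made over all genes, so this shows nothing particular to the members. Of 12 pluripotency markers, all were tested, 1 was higher (PRDM14) and 7 lower, among them POU5F1 (-0.44) and DNMT3B (-1.06 on the log2 scale). NANOG was lower by less (-0.14), and SOX2, TDGF1, SALL4 and LIN28A did not pass an adjusted p of 0.05. The summed level of the 12 was 7455 to 8565 CPM in UNC1999 libraries and 10429 to 10608 CPM in UNC2400 libraries. DNMT3B alone had means of 1202 CPM in UNC1999 and 2498 CPM in UNC2400 libraries. Of 15 fibroblast or feeder markers, 11 were tested, 2 were higher (S100A4 and PDGFRB) and 8 lower in UNC1999. Their summed level was 358 to 387 CPM in UNC1999 libraries and 626 to 701 CPM in UNC2400 libraries. The largest parts of this sum were COL6A1, COL6A2, COL1A2 and THY1, and COL3A1, LUM and FAP had too few counts to be tested. The defining fibroblast gene DCN was at 0 to 0.0853 CPM in UNC1999 libraries and at 0 to 0.0239 CPM in UNC2400 libraries. Of 14 hypoblast or endoderm markers, 7 were tested. Of these, 3 were higher (CER1, SOX7 and GATA4, the last 2 with log2 fold changes of 1.02 and 1.37) and 2 lower (PDGFRA and COL4A1). Their summed level was 140 to 162 CPM in UNC1999 libraries and 129 to 139 CPM in UNC2400 libraries, a higher sum that rests on CER1 (34.6, 60.9 and 68.6 CPM in UNC1999 libraries and 3.54, 3.74 and 3.15 CPM in UNC2400 libraries). Without CER1 the sum was 87.4 to 106 CPM in UNC1999 libraries and 125 to 135 CPM in UNC2400 libraries. Its largest part was COL4A1, also a basement membrane gene, with means of 51.2 CPM in UNC1999 and 73.1 CPM in UNC2400 libraries. The defining gene GATA6 was at 0.203 to 0.313 CPM in UNC1999 libraries and 0 to 0.0479 CPM in UNC2400 libraries. Of 15 trophoblast markers, 5 were tested, 0 higher and 1 lower (117 to 127 CPM in UNC1999 libraries and 132 to 138 CPM in UNC2400 libraries), and CGB and VGLL1 had a count of 0 in every library. The part of these marker genes in the results below was not tested, and in bulk RNA fewer cells of a type and less RNA per cell cannot be told apart.

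Most of the laminin network and its linkers fell in UNC1999. More integrin chains fell than rose, many did not pass the test, and a few members rose. Of the 43 members, 38 passed the low-count filter, ITGAD through the UNC2400 libraries alone, which limits its place in the counts below. Among these 38, 4 rose (ITGA5, LAMB3, ITGB8 and ITGAE), 20 fell and 14 did not pass an adjusted p of 0.05 in edgeR's quasi-likelihood test with Benjamini-Hochberg adjustment over all 17596 genes tested. The 24 that passed are 63.2% of the tested members, beside 52.7% of all genes tested. Of all genes, 26.8% were higher and 25.9% lower in UNC1999, so the split of the members leaned to the lower side while that of all genes did not. The median log2 fold change (UNC1999 minus UNC2400) was -0.28 over the members and 0.02 over all genes. A change past the threshold of at least 0.5 on the log2 scale was seen in 18 members, 3 higher and 15 lower, beside 21.6% of all genes. The libraries of the groups did not overlap in 26 of the 38 tested members, beside 60.6% of all genes. Without UNC1999 replicate 1, 4 of 39 tested members rose and 21 fell, beside 4925 higher and 5151 lower of 18004 genes. In the authors' deposited table, 41 of the 43 members were listed, with 4 higher and 20 lower at an adjusted p under 0.05, beside 44% of all genes in that table. For the 38 members tested here, the call in the authors' deposited table was the same.

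**Figure D1:**
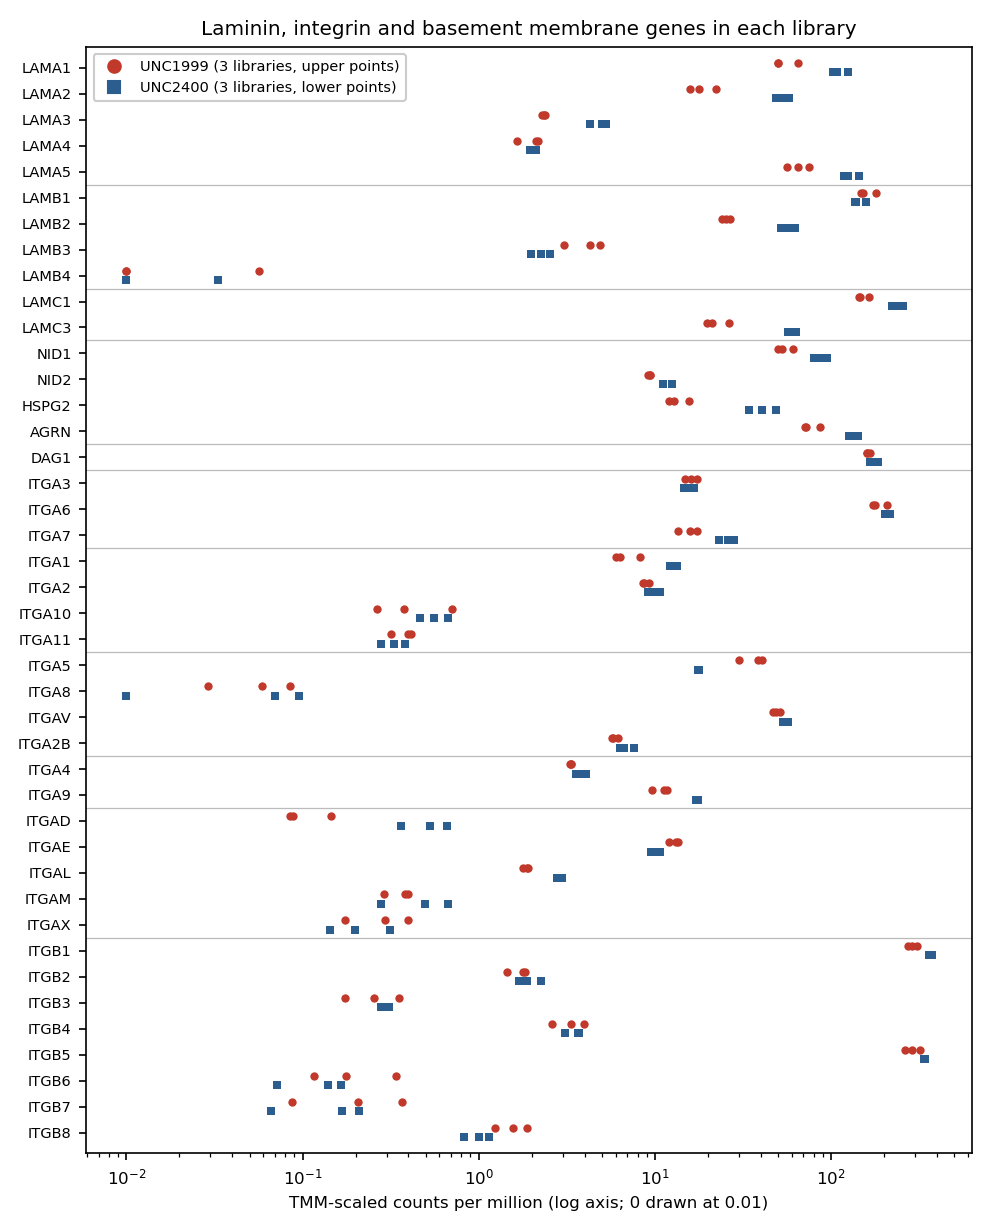
TMM-scaled CPM (log axis) of 42 of the 43 members in each library, with UNC1999 as red circles above UNC2400 as blue squares, and a count of 0 drawn at 0.01. Laminin chains span less than 0.1 CPM (LAMB4) to over 100 CPM (LAMB1, LAMC1), and the red points lie left of the blue ones for most alpha chains, linkers and LAMB2, LAMC1 and LAMC3, but right of them for LAMB3, ITGA5, ITGAE and ITGB8.

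The promoters of the members that fell and rose most are shown to let their base composition be compared. They are the 250 bases before the transcription start in RefSeq (GRCh38.p14, a build other than the hg19 of the counts), 5′ to 3′ on the gene's strand, for the 2 members with the greatest fall and the 2 with the greatest rise among the members that changed and have a single listed start. Capitals mark GGGCGG or its complement CCGCCC, the GC box.
LAMA2, chr6:128882888-128883137, plus strand: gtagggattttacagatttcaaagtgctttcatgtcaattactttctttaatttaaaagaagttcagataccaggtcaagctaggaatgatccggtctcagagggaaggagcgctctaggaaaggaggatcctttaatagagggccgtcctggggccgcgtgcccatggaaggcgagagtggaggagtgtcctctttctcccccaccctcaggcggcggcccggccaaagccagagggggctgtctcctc
HSPG2, chr1:21937311-21937560, minus strand: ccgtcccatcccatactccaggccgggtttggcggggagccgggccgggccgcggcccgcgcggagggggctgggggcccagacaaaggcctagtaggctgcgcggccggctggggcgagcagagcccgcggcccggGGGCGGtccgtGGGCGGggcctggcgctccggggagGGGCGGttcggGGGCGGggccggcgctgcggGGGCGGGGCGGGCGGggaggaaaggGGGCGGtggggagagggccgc
ITGA5, chr12:54419267-54419516, minus strand: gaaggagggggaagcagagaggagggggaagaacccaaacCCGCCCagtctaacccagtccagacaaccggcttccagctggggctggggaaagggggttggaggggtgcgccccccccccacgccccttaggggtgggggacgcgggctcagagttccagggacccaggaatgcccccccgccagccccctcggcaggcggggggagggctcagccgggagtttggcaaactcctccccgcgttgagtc
ITGB8, chr7:20330650-20330899, plus strand: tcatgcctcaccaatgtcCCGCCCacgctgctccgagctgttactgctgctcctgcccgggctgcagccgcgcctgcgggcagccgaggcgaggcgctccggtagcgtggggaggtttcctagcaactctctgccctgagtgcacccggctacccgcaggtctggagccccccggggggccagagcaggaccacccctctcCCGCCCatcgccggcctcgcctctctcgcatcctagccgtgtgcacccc
LAMA2 had 9 CpG dinucleotides and no GC box in this window, and HSPG2 had 33 CpG and 8 GC boxes, counting those that overlap. ITGA5 had 12 CpG and 1 GC box, 210 bases before the start, and ITGB8 had 21 CpG and 2 GC boxes. Each pair, the one that fell and the one that rose, held 1 promoter with more and 1 with fewer CpG. Starts were listed for 30 of the members (38 starts), with a median of 14 CpG, beside 19 over the promoters of tested genes and 11 over all promoters in the table. Searched on both strands, GGGCGG was found at 57.9% of the members' starts, 61.2% of those of tested genes and 42.6% of all. TGANTCA, the AP-1 motif, was found at 5.26%, 4.54% and 6.57%, TATAAA at 5.26%, 6.25% and 10.7%, and CACGTG, the E-box, at 2.63%, 7.94% and 6.34%. The starts of members that fell had a median of 18 CpG (18 starts), those of members that rose 9 CpG (6 starts of 4 genes, 3 of them of LAMB3) and those of members that did not pass the test 23.5 CpG (10 starts). None of the 4 printed windows held TGANTCA or TATAAA.

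Of the 5 laminin alpha chains, which carry the domains that cells bind, LAMA1, LAMA2, LAMA3 and LAMA5 fell and LAMA4 did not pass the test. LAMA1, the alpha chain of the laminin of the early embryo, was at 65.5, 49.9 and 50.02 CPM in the UNC1999 libraries (replicates 1 to 3, scaled by edgeR's TMM factors as all levels here) and at 125, 103 and 109 CPM in the UNC2400 libraries. Every UNC1999 library lay below every UNC2400 library, and the log2 fold change was -1.03 ± 0.09 (SE; edgeR adjusted p = 1.14e-07). LAMA5, the alpha chain of the laminin on which pluripotent cells are often grown, was at 75.6, 64.9 and 56.7 CPM in UNC1999 libraries and at 144, 119 and 125 CPM in UNC2400 libraries. It fell without overlap and by about as much as LAMA1 (-0.98 ± 0.08, edgeR adjusted p = 1.10e-07).

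LAMA2, the alpha chain of muscle and Schwann cell basement membranes, was at 22.4, 15.8 and 17.8 CPM in UNC1999 libraries and at 57.9, 49.0 and 53.5 CPM in UNC2400 libraries. It was 2.86-fold lower without overlap (-1.52 ± 0.10, edgeR adjusted p = 5.33e-09). LAMA3, the alpha chain of the laminin that anchors skin epithelium, was scarce, at 2.29, 2.39 and 2.36 CPM in UNC1999 libraries and at 5.00, 4.29 and 5.30 CPM in UNC2400 libraries. It fell by 1.04 ± 0.14 on the log2 scale (SE, edgeR adjusted p = 1.38e-05) with no overlap. LAMA4, a chain of vessel wall laminins, was at 1.65 to 2.18 CPM in UNC1999 libraries and at 1.96 to 2.12 CPM in UNC2400 libraries, with a 95% interval of the log2 fold change of -0.42 to 0.35. LAMA2 and LAMA3 are long genes, of 633 and 267 kb, and with offsets for gene length and GC content their log2 fold changes were -0.96 and -0.63, still past the threshold. Smaller falls with the offsets were also seen for LAMA1 (-0.72), LAMA5 (-0.68), LAMC1 (-0.49) and AGRN (-0.61), each past the threshold. With these offsets LAMB2 (-1.22) and LAMC3 (-1.14) had lower values than LAMA2, and without them LAMA2 had the lowest of the laminin chains.

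The beta chains moved apart. LAMB2, the beta chain of mature kidney and nerve-muscle basement membranes, was at 26.8, 25.6 and 24.0 CPM in UNC1999 libraries and at 63.0, 52.4 and 57.0 CPM in UNC2400 libraries, a fall of 2.25-fold with no overlap (-1.17 ± 0.07, SE; edgeR adjusted p = 2.75e-09). LAMB1, the beta chain of most embryonic laminins, was at 181, 149 and 152 CPM in UNC1999 libraries and at 159, 140 and 137 CPM in UNC2400 libraries. The groups overlapped, and the log2 fold change of 0.15 had a 95% interval of -0.0029 to 0.30 (edgeR adjusted p = 0.0928). LAMB1 passed the threshold as higher without UNC2400 replicate 1 (0.21, edgeR adjusted p = 0.0362), with a term for the replicate number (0.15, edgeR adjusted p = 0.0155) and with length and GC offsets (0.25, edgeR adjusted p = 0.00509). LAMB3, the beta chain that joins LAMA3 in the skin laminin, was at 3.05, 4.29 and 4.89 CPM in UNC1999 libraries and at 1.98, 2.25 and 2.55 CPM in UNC2400 libraries. It rose 1.80-fold without overlap (0.85 ± 0.18, SE; edgeR adjusted p = 0.000836), opposite in direction to LAMA3. LAMB4 was below the filter, with counts of 0, 2 and 0 in UNC1999 libraries and 0, 0 and 1 in UNC2400 libraries.

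LAMC1 and LAMC3, both gamma chains, fell. LAMC1, the gamma chain of nearly all laminins, was at 166, 147 and 144 CPM in UNC1999 libraries and at 257, 223 and 234 CPM in UNC2400 libraries. It fell without overlap by 0.64 ± 0.06 on the log2 scale (SE, edgeR adjusted p = 4.52e-07). LAMC3, a gamma chain of retinal and brain laminins, was at 26.6, 19.8 and 21.2 CPM in UNC1999 libraries and at 63.7, 57.4 and 59.5 CPM in UNC2400 libraries, a fall of 2.67-fold with no overlap (-1.42 ± 0.08, SE; edgeR adjusted p = 2.66e-09).

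Set against each other per kb of joined exon, the most abundant laminin chains ranked in the same order in both groups, with different shares. Among the alpha chains LAMA5 made up 45.1% ± 2.34 in UNC1999 libraries and 41.5% ± 0.412 in UNC2400 libraries (SD, n = 3 each, as for all shares here), followed by LAMA1 with 34.0% ± 0.840 and 32.5% ± 0.266. LAMA2 was the third, with 17.6% ± 1.41 in UNC1999 libraries and 23.7% ± 0.503 in UNC2400 libraries. Among the beta chains LAMB1 made up 81.1% ± 1.71 in UNC1999 libraries and 66.8% ± 1.17 in UNC2400 libraries. LAMB2 made up 15.3% ± 0.832 in UNC1999 libraries and 31.3% ± 1.06 in UNC2400 libraries. The LAMB1 and LAMB2 shares did not overlap between groups. An exact two-sided permutation test of 3 against 3 libraries cannot give a p below 0.1, which it gave for each of these shares. Per kb of the longest transcript, the LAMA1 shares overlapped between groups, and the same permutation test gave p = 0.2.

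**Figure D2:**
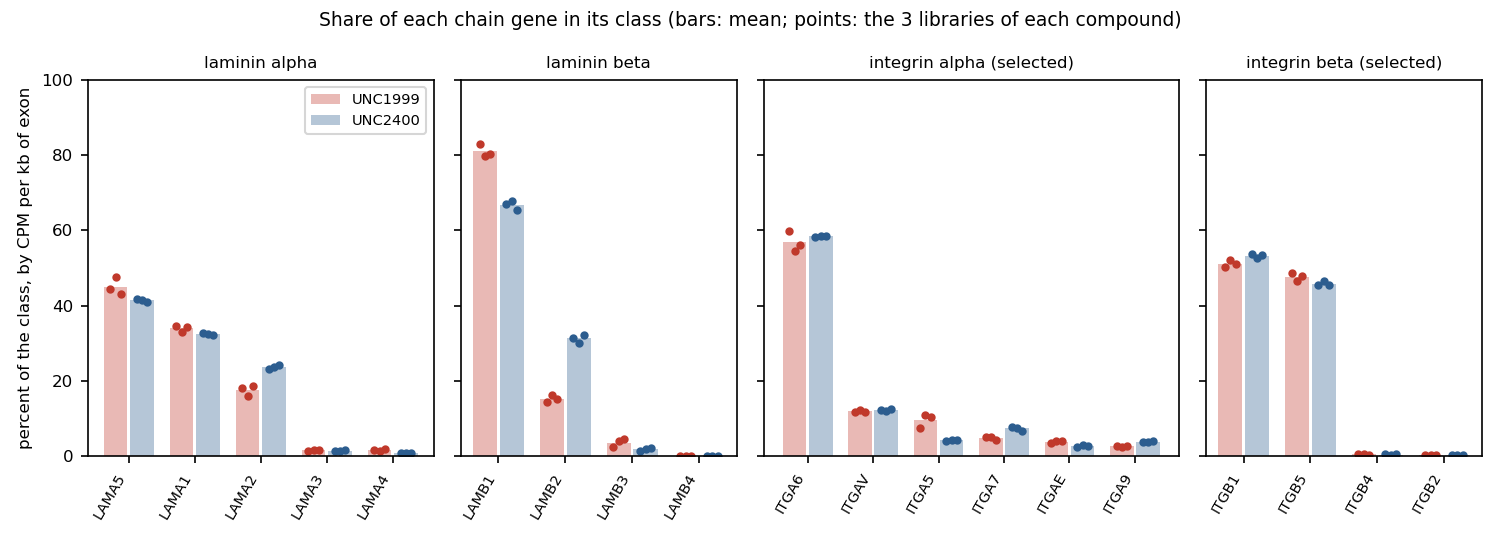
Percent of each chain gene among its class, from CPM per kb of joined exon length. Bars are means, and points the 3 libraries of UNC1999 (red, left) and UNC2400 (blue, right). The 2 integrin panels show selected members. The alpha panel leaves out ITGA3, with 3.29% in UNC1999 and 2.87% in UNC2400, more than ITGA9 in UNC1999 and ITGAE in UNC2400. LAMB2 holds 15.3% of beta chain RNA in UNC1999 and 31.3% in UNC2400, and ITGA5 9.60% and 4.26% of integrin alpha chain RNA.

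All 4 linkers fell. HSPG2 encodes perlecan, the heparan sulfate proteoglycan of basement membranes, whose GC-box-rich promoter is printed above. It was at 15.7, 12.1 and 12.9 CPM in UNC1999 libraries and at 49.0, 34.4 and 40.7 CPM in UNC2400 libraries. That is 3.04-fold lower with no overlap (-1.60 ± 0.11, SE; edgeR adjusted p = 1.34e-08), and with length and GC offsets the log2 fold change was -1.20, close to the -1.22 of LAMB2. AGRN, the proteoglycan that binds laminin and dystroglycan and gathers receptors at nerve-muscle contacts, was at 86.7, 72.3 and 71.2 CPM in UNC1999 libraries and at 143, 127 and 131 CPM in UNC2400 libraries. It fell without overlap (-0.80 ± 0.07, SE; edgeR adjusted p = 1.16e-07). NID1, which bridges laminin gamma chains and type IV collagen, was at 61.3, 50.3 and 52.8 CPM in UNC1999 libraries and at 95.2, 80.1 and 86.0 CPM in UNC2400 libraries (-0.67 ± 0.07, SE; edgeR adjusted p = 1.19e-06), again without overlap. NID2, its paralog, was at 9.40, 9.38 and 9.17 CPM in UNC1999 libraries and at 12.6, 11.2 and 12.6 CPM in UNC2400 libraries (-0.38 ± 0.09, SE; edgeR adjusted p = 0.00204), a smaller fall without overlap. Of NID2's exons, 29.96% overlap C14orf166 on the opposite strand in GENCODE release 29. C14orf166 had a log2 fold change of -0.17, and the strand setting of the counting is not given in the sources used here, so the reads of these genes may be shared.

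DAG1, the laminin and agrin receptor outside the integrin family, was at 167, 160 and 161 CPM in UNC1999 libraries and at 186, 172 and 168 CPM in UNC2400 libraries. The groups did not overlap, but the difference was small and did not pass the threshold (-0.11, 95% interval -0.22 to -0.0009, edgeR adjusted p = 0.0842). Without UNC1999 replicate 1 it passed (-0.15, edgeR adjusted p = 0.0153). With length and GC offsets the difference was gone (-0.0007, edgeR adjusted p = 0.994).

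**Figure D3:**
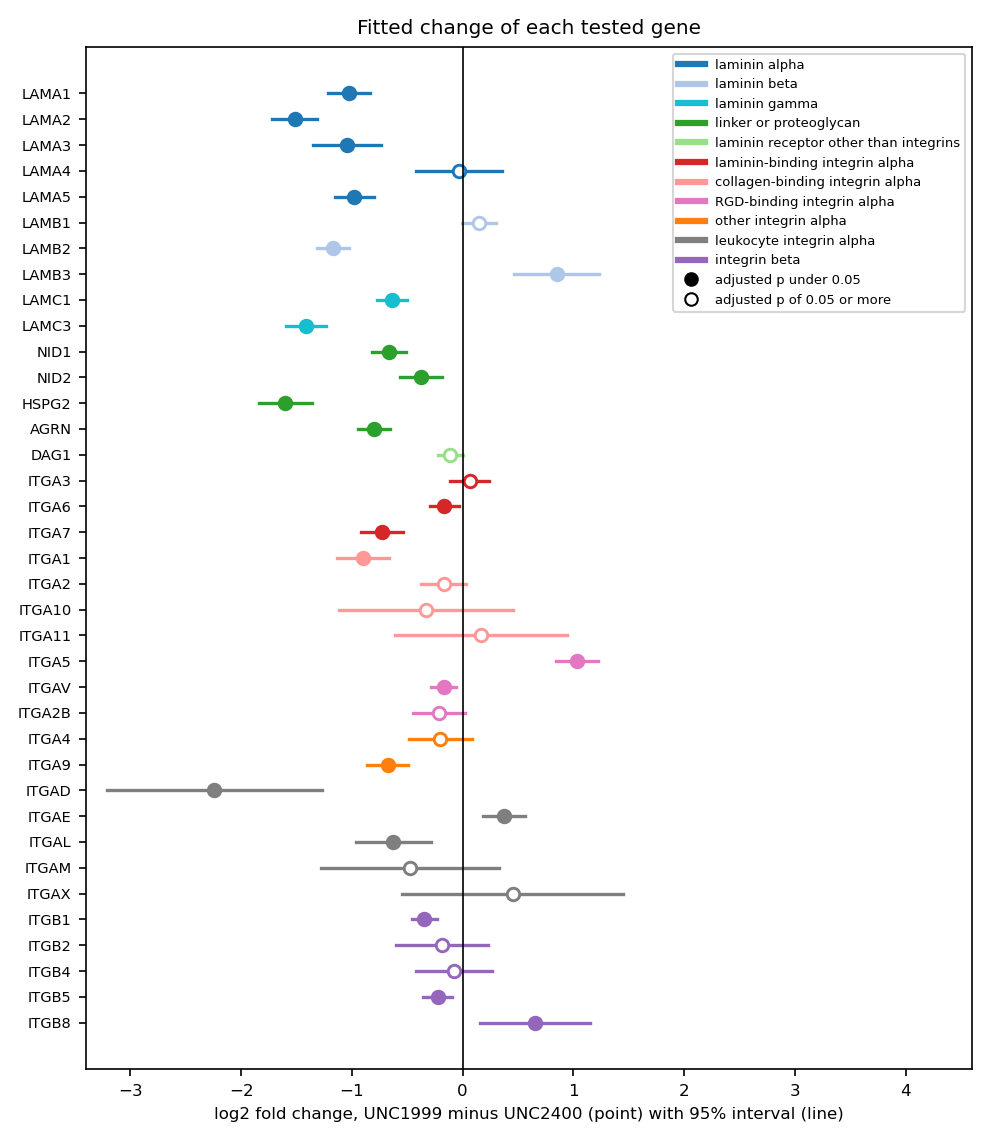
Fitted log2 fold change, UNC1999 minus UNC2400, of 37 of the 38 tested members with its 95% interval; filled points have an adjusted p under 0.05 and colours give the class. All 4 linkers and 4 of 5 laminin alpha chains lie left of 0 with filled points, and ITGA5, LAMB3, ITGB8 and ITGAE lie right of it.

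Of the 17 tested integrin alpha chains, 2 rose, 7 fell and 8 did not pass the test, with a median log2 fold change of -0.20. The 9 that passed are 52.9% of them, a share near the 52.7% of all genes. Among the laminin-binding alpha chains, ITGA6, the main one of pluripotent cells, was at 208, 174 and 179 CPM in UNC1999 libraries and at 218, 208 and 205 CPM in UNC2400 libraries. The groups overlapped, and the fall was small (-0.17 ± 0.06, SE; edgeR adjusted p = 0.0354). That call was lost without any 1 library other than UNC1999 replicate 1 (edgeR adjusted p 0.0607 to 0.132) and with length and GC offsets (-0.09, edgeR adjusted p = 0.253). Without UNC1999 replicate 1 the log2 fold change was -0.27 (edgeR adjusted p = 3.25e-05). ITGA7, the laminin-binding alpha chain of muscle, was at 17.4, 15.9 and 13.6 CPM in UNC1999 libraries and at 28.4, 26.1 and 23.3 CPM in UNC2400 libraries, a clear fall without overlap (-0.73 ± 0.09, SE; edgeR adjusted p = 5.01e-06). ITGA3, another epithelial laminin receptor chain, was at 14.9 to 17.5 CPM in UNC1999 libraries and at 14.8 to 16.7 CPM in UNC2400 libraries. Its 95% interval was -0.11 to 0.24, and with length and GC offsets it passed as higher (0.20, edgeR adjusted p = 0.0391).

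Among the collagen-binding alpha chains, ITGA1 fell. It was at 8.21, 6.05 and 6.40 CPM in UNC1999 libraries and at 13.4, 12.3 and 12.8 CPM in UNC2400 libraries, with no overlap (-0.90 ± 0.11, SE; edgeR adjusted p = 4.31e-06), and with length and GC offsets its log2 fold change was -0.60. PELO lies within ITGA1 on the same strand and overlaps 2.56% of its exons. ITGA2 did not pass the test, at 8.64 to 9.26 CPM in UNC1999 libraries and at 9.17 to 10.7 CPM in UNC2400 libraries (95% interval -0.38 to 0.03). ITGA10 and ITGA11 were below 1 CPM in every library and did not pass, with 95% intervals of -1.12 to 0.46 and -0.61 to 0.94.

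ITGA5, the alpha chain of the classical fibronectin receptor, was the member that rose most. It was at 30, 40.5 and 38.6 CPM in UNC1999 libraries and at 17.7, 17.8 and 17.7 CPM in UNC2400 libraries. The groups were well apart, with UNC1999 replicate 1 the lowest of its group, and the rise was 2.05-fold (1.04 ± 0.09, SE; edgeR adjusted p = 1.16e-07). Its ligand FN1 fell, as given with the other matrix genes. ITGAV, which binds vitronectin and fibronectin with several beta chains, was at 51.7, 48.9 and 46.8 CPM in UNC1999 libraries and at 57.1, 53.9 and 55.2 CPM in UNC2400 libraries (-0.17 ± 0.05, SE; edgeR adjusted p = 0.0141). This small fall, without overlap, did not pass without UNC1999 replicate 3 (edgeR adjusted p = 0.0568), without UNC2400 replicate 1 (edgeR adjusted p = 0.0655) or with length and GC offsets (-0.06, edgeR adjusted p = 0.368). ITGA2B, the platelet fibrinogen receptor chain, did not pass the test, with 5.75 to 6.18 CPM in UNC1999 libraries and 6.35 to 7.64 CPM in UNC2400 libraries. ITGA8 was below the filter, with counts of 1, 3 and 2 in UNC1999 libraries and 2, 4 and 0 in UNC2400 libraries.

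ITGA9, which binds tenascin among other ligands, was at 11.8, 9.61 and 11.3 CPM in UNC1999 libraries and at 17.7, 17.2 and 17.4 CPM in UNC2400 libraries. It fell without overlap (-0.68 ± 0.09, SE; edgeR adjusted p = 6.46e-06), and with length and GC offsets the log2 fold change was -0.24 (edgeR adjusted p = 0.0148). Its related chain ITGA4 did not pass the test, with 3.30 to 3.37 CPM in UNC1999 libraries and 3.57 to 4.10 CPM in UNC2400 libraries.

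Of the alpha chains known from leukocytes, ITGAE was above 9 CPM in every library, and ITGAL, ITGAD, ITGAM and ITGAX were below 3 CPM. Of 13 leukocyte or platelet markers, 7 were tested, 1 higher and 3 lower, with a summed level of 39.1 to 41.1 CPM in UNC1999 libraries and 31.7 to 35.4 CPM in UNC2400 libraries. The higher sum rests on LCP1, without which it was 17.4 to 18.4 CPM in UNC1999 libraries and 23.2 to 25.7 CPM in UNC2400 libraries. GP9 had a count of 0 in every library, and PTPRC, the pan-leukocyte marker, was at 0 to 0.0295 CPM in UNC1999 libraries and 0.0331 to 0.139 CPM in UNC2400 libraries. ITGAE, the alpha chain of the E-cadherin receptor of intraepithelial T cells, was at 12.1, 13.3 and 13.6 CPM in UNC1999 libraries and at 9.69, 10.7 and 9.51 CPM in UNC2400 libraries. It rose modestly without overlap (0.38 ± 0.09, SE; edgeR adjusted p = 0.00205). GSG2, on the opposite strand, overlaps 6.41% of the exons of ITGAE and was also higher in UNC1999 (0.69, edgeR adjusted p = 1.91e-06), and without a known strand setting their reads cannot be told apart there. ITGAL was at 1.80, 1.90 and 1.89 CPM in UNC1999 libraries and at 2.99, 2.87 and 2.78 CPM in UNC2400 libraries, a fall without overlap (-0.63 ± 0.16, SE; edgeR adjusted p = 0.00343). ITGAD had counts of 5, 3 and 3 in UNC1999 libraries and 19, 22 and 11 in UNC2400 libraries. It fell by 2.24 ± 0.46 on the log2 scale (SE, edgeR adjusted p = 0.000578), but it passed the filter through the UNC2400 libraries alone, and its reads may be shared with its near relatives ITGAM and ITGAX. ITGAM and ITGAX were below 1 CPM and did not pass, with 95% intervals of -1.28 to 0.33 and -0.54 to 1.45.

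Of the 8 beta chains, ITGB1 and ITGB5 fell, ITGB8 rose, ITGB2 and ITGB4 did not pass the test, and ITGB3, ITGB6 and ITGB7 were below the filter. The 3 that passed are 60% of the 5 tested, a share near the 52.7% of all genes. ITGB1, the partner of most laminin- and collagen-binding alpha chains and of ITGA5, was at 308, 275 and 290 CPM in UNC1999 libraries and at 375, 361 and 374 CPM in UNC2400 libraries. It fell 1.27-fold without overlap (-0.35 ± 0.05, SE; edgeR adjusted p = 5.07e-05), a smaller value than those of LAMA1 and LAMA5. ITGB5, a partner of ITGAV, was at 320, 264 and 291 CPM in UNC1999 libraries and at 340, 341 and 342 CPM in UNC2400 libraries. This fall without overlap (-0.23 ± 0.06, SE; edgeR adjusted p = 0.00547) ended with length and GC offsets (-0.03, edgeR adjusted p = 0.708). ITGB8, whose pairing with ITGAV releases latent TGF-beta, was at 1.25, 1.88 and 1.56 CPM in UNC1999 libraries and at 1.15, 1.01 and 0.829 CPM in UNC2400 libraries. The groups did not overlap (0.65 ± 0.24, SE; edgeR adjusted p = 0.0276). This rise did not pass in DESeq2 (adjusted p = 0.0638) or without UNC1999 replicate 2 or 3 (edgeR adjusted p = 0.128 and 0.0664) or UNC2400 replicate 2 or 3 (edgeR adjusted p = 0.0717 and 0.106).

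ITGB4, the partner of ITGA6 in hemidesmosomes, was at 2.62 to 3.95 CPM in UNC1999 libraries and at 3.11 to 3.74 CPM in UNC2400 libraries (95% interval -0.42 to 0.27). ITGB2, the leukocyte beta chain, was at 1.44 to 1.85 CPM in UNC1999 libraries and at 1.70 to 2.25 CPM in UNC2400 libraries (95% interval -0.60 to 0.23). Counts of ITGB3 were 6, 9 and 12 in UNC1999 libraries and 8, 13 and 9 in UNC2400 libraries. The epithelial chain ITGB6 had 4, 12 and 6 in UNC1999 libraries and 4, 3 and 5 in UNC2400 libraries, and ITGB7 had 3, 13 and 7 and 6, 7 and 2. In GENCODE release 29 these last counts touch an overlap, since ZNF740 covers 42.1% of the exons of ITGB7 on the opposite strand.

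Per kb of joined exon, the pair ITGA6 and ITGB1 led its classes in both groups. Of integrin alpha chain RNA, ITGA6 made up 56.9% ± 2.72 in UNC1999 libraries and 58.5% ± 0.175 in UNC2400 libraries, an overlapping share, and ITGAV 11.9% ± 0.256 and 12.3% ± 0.251. ITGA5 was the third alpha chain in UNC1999 libraries, with 9.60% ± 1.89, and the fourth in UNC2400 libraries, with 4.26% ± 0.1498. Per kb of the longest transcript it was second in UNC1999 libraries, with 11.4%, ahead of ITGAV with 10.9%. ITGA7 held 4.87% ± 0.429 in UNC1999 libraries and 7.39% ± 0.505 in UNC2400 libraries. ITGB1 made up 51.2% ± 0.884 of beta chain RNA in UNC1999 libraries and 53.3% ± 0.495 in UNC2400 libraries, and ITGB5 47.7% ± 1.02 and 45.8% ± 0.555. The beta chains other than these were each below 1% of their class.

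The members had a longer median span than all genes, and a greater share of long genes was lower in UNC1999. The median genomic span was 79.0 kb over the 38 tested members and 31.0 kb over the 15528 tested genes with a known span. Of all genes that span 100 kb or more, 54.5% were lower in UNC1999 (median log2 fold change -0.28), against 9.10% of those under 10 kb (median 0.20). Of the 12 members that span 100 kb or more, 9 fell and 0 rose (median -0.66). Of the 14 members of 50 to 100 kb, 7 fell and 2 rose (median -0.19), beside 36.1% lower among all genes of that span. The 12 members of 10 to 50 kb held 4 that fell and 2 that rose (median -0.20), beside 21.7% lower among all genes of that span. With offsets for length and base composition, 6 of 38 members rose and 17 fell, beside 4120 higher and 4334 lower of 17596 genes. The median over the members in that fit was -0.23, beside -0.0027 over all genes. The part of gene length in the single changes was not tested beyond these offsets.

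**Figure D4:**
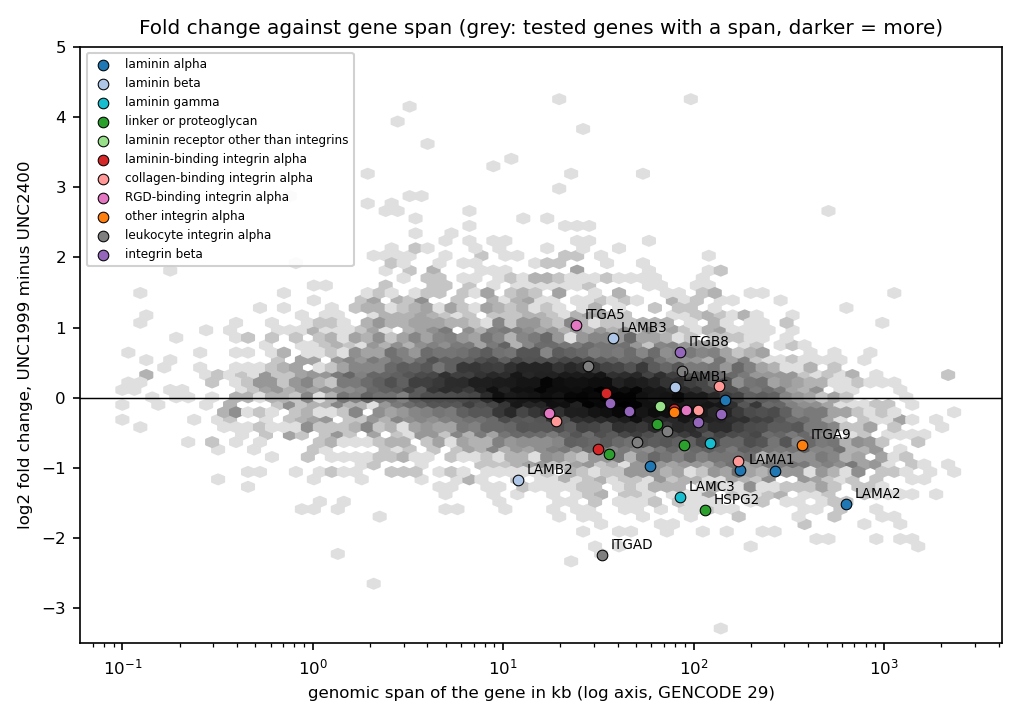
Log2 fold change (UNC1999 minus UNC2400) against genomic span in kb (log axis) for 37 of the 38 tested members, coloured by class, over all tested genes with a span (grey, darker where more genes lie). The grey cloud bends below 0 towards long genes (median -0.28 at 100 kb or more), and LAMA2, HSPG2, LAMC3 and LAMB2 lie in its lower part for their span.

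Genes that work with the members were described by 4 lists of non-members. Of 38 other basement membrane and matrix genes, 36 were tested, 5 were higher, 24 lower and 7 did not pass, with a median log2 fold change of -0.71. The share that passed was 80.6% in this list, 62.8% in the focal adhesion list, 48.1% in the dystroglycan list and 61.1% among the integrin partners, beside 52.7% of all genes. HMCN1 (hemicentin, an extracellular matrix protein) was at 5.18 ± 1.12 CPM in UNC1999 libraries and 21.4 ± 2.82 CPM in UNC2400 libraries (SD, n = 3 each), with a log2 fold change of -2.04 ± 0.13 (SE, edgeR adjusted p = 5.55e-09). FN1 (fibronectin, the ligand of ITGA5 with ITGB1) was at 104 ± 11.3 CPM in UNC1999 libraries and 268 ± 33.7 CPM in UNC2400 libraries (-1.37 ± 0.08). GPC3 (a glypican, a surface heparan sulfate proteoglycan) and FREM2 (a protein of the embryonic epidermal basement membrane) had log2 fold changes of -1.28 ± 0.08 and -1.22 ± 0.09. The 6 type IV collagen chain genes on the list, singled out after their values were seen, were all lower, with log2 fold changes of -0.51 (COL4A1) to -1.55 (COL4A3).

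Of 44 focal adhesion genes, which join integrins to actin, 43 were tested, 10 higher, 17 lower and 16 not passed, with a median of -0.03. Members of one structure went opposite ways. TLN2, a talin that activates integrins (-1.30 ± 0.08), and the actin crosslinker FLNA (-1.08 ± 0.08) fell, while the scaffold protein PXN (paxillin) rose (0.90 ± 0.06; edgeR adjusted p at most 1.16e-08 for these genes). With length and GC offsets the balance turned, with 14 of the list higher and 10 lower. Of 31 genes of the dystroglycan complex and its glycosylation, 27 were tested, 9 higher, 4 lower and 14 not passed, with a median of 0.04. UTRN (utrophin, which links dystroglycan to actin; -0.83 ± 0.08), DTNB (dystrobrevin beta; -0.65 ± 0.07) and LARGE (a glycosyltransferase that makes the laminin-binding sugar of dystroglycan; -0.75 ± 0.10) fell, and DPM2 (part of the dolichol-phosphate-mannose synthase; 0.60 ± 0.06) rose. Of 19 partners in integrin assembly and signalling, 18 were tested, 7 higher, 4 lower and 7 not passed, with a median of 0.05. SLC3A2 (0.92 ± 0.09), the CD98 heavy chain, which binds integrin beta tails, and LGALS1 (0.59 ± 0.07), a galectin, rose. LTBP1 (-1.06 ± 0.09), a carrier of latent TGF-beta, and TSPAN4 (-0.35 ± 0.06), a tetraspanin, fell. The median of the other basement membrane genes lay below that of the members, and those of the other lists lay near that of all genes. The lists also differed in gene length. Their median spans were 142 kb (other basement membrane), 55.3 kb (focal adhesion), 40.9 kb (dystroglycan) and 22.8 kb (integrin partners). The members had 79.0 kb and all genes 31.0 kb. The part of gene length in the order of these medians was not tested.

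**Figure D5:**
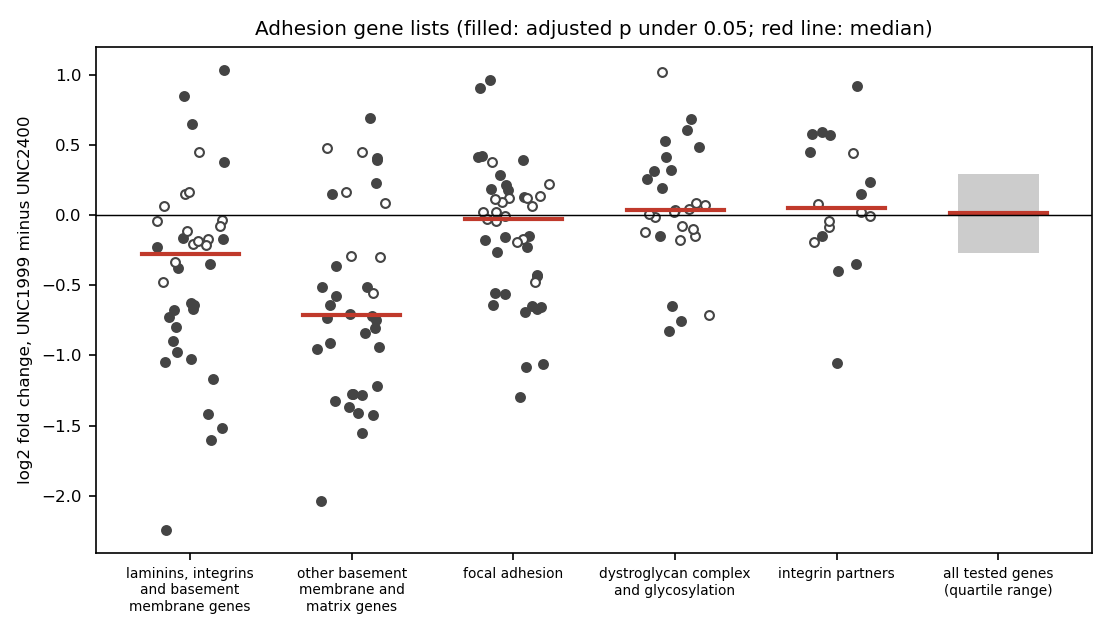
Log2 fold change (UNC1999 minus UNC2400) of each tested gene in the members and 4 other adhesion lists, with filled points for an adjusted p under 0.05, red lines for medians and a grey box from the lower to the upper quartile of all tested genes. The medians are -0.28 for the members, -0.71 for other basement membrane and matrix genes, and -0.03 to 0.05 for the other lists.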

How the data were processed

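Per the labels' protocols, 200 ng of RNA went into each poly(A)-selected, strand-marking library. The authors deposited whole-number counts per gene name without normalization. The submitters' processing notes list hg19, TopHat2 2.0.13, Subread 1.5.0, featureCounts and Trim Galore 0.4.0, without roles. Not given in the sources used here are the annotation, the strand setting and what the table's mark of duplicate removal means, and reads shared by near-identical or overlapping genes may be split or lost. Scores (t, B), p-values and log2 fold changes of the authors' own comparison were deposited in a table with limma's column names, per the file headers. The authors' deposited log2 values are marked as normalized and batch-corrected and were used for no test.

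Counts were tested in R 4.3.3 by the two-sided quasi-likelihood F test of edgeR 4.0.16 (TMM factors, a group term alone, default low-count filter with a minimum count of 10, Benjamini-Hochberg adjustment over 17596 genes, threshold 0.05). Log2 fold changes are UNC1999 minus UNC2400 with SE and 95% interval, and levels are TMM-scaled CPM. The script was tested on simulated counts. The name pattern that gives the members, which uses no measured value, and the gene lists were chosen with earlier results of these data known. Values in every library are given for members past the threshold with a log2 fold change of at least 0.5 in size and for 10 fixed ones, and the 4 genes with the smallest p are named from each other list. A few genes within these lists are not reported here. Gene spans, exon lengths and GC content came from GENCODE release 29 (88.2% of tested genes, 38 of 38 tested members), and promoters from RefSeq. The settings varied were the scaling (RLE, upper quartile), the tool (limma 3.58.1 with voom, DESeq2 1.42.0), the filter, leaving out each library, a replicate block, and length and GC offsets (mgcv 1.9.3). Intervals cover the spread between 3 libraries per group, and floors of 3 counts cover counting error only.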

Additional observations from a re-analysis of the deposited data

How the results depend on the processing

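Across the members, 3 to 6 rose and 17 to 21 fell under the alternatives tried. In the same fits, 3642 to 4926 genes were higher and 3951 to 5151 lower, of 14540 to 36090 tested. With DESeq2, 3 members rose and 20 fell, and with each library left out 3 to 5 members rose and 18 to 21 fell. RLE and upper-quartile scaling changed no call of a member. With length and GC offsets the focal adhesion list had 14 higher and 10 lower genes, against 10 and 17, and the other basement membrane list 8 higher genes, against 5, with and without the replicate block. Without 1 library, 6 to 11 focal adhesion genes were higher, against 10, the lowest without UNC1999 replicate 3. Direction turned in members that passed no test in either fit. With offsets, without and with the block, LAMA4 was at 0.16 and 0.15 against -0.04 and ITGB4 at 0.0696 and 0.0604 against -0.08. With each library left out in turn, LAMA4 ran over -0.13 to 0.0744, ITGA3 over -0.0037 to 0.11 and ITGB4 over -0.24 to 0.0471. The cause was not tested. Between same-numbered libraries, deviations from the group means correlated weakly, at 0.0237, 0.0839 and 0.124. Each UNC1999 library correlated best with the UNC2400 library of its own number. UNC2400 replicate 1 correlated best with UNC1999 replicate 2 (0.0618). Replicate 2 had the most genes detected in both groups (29527 and 29385, against 26413 to 26918 in the other libraries). A shared effect of the replicate number was not tested. With the replicate block 5 members rose and 20 fell, LAMB1 being the one added. Per kb of the longest transcript in place of joined exons, the shares in UNC1999 and UNC2400 libraries were 39.3% and 38.1% for LAMA1, 42.6% and 39.8% for LAMA5, 83.6% and 70.3% for LAMB1, 13.5% and 28.3% for LAMB2, 51.9% and 54.1% for ITGA6, 11.4% and 5.14% for ITGA5, 53.1% and 55.2% for ITGB1, and 46.0% and 44.1% for ITGB5. Depth limits the members under 1 CPM: the 95% intervals of ITGA10, ITGA11, ITGAM and ITGAX were each wider than 1 on the log2 scale.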
